A study of Mus musculus with 6 samples.

Results

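Carbonic anhydrases are the enzymes that interconvert carbon dioxide and bicarbonate, and 10 of their genes were followed here in cells sorted from the livers of mouse embryos: Car1, Car2, Car3, Car4, Car5a, Car8, Car9, Car12, Car13 and Car14. They were taken by symbol from the 52550 genes of the expression table, and each symbol matched 1 row. The cells were GFP-positive cells of CD-1 embryos carrying Sox9-GFP, in which green fluorescent protein reports the biliary transcription factor SOX9. No sort marker besides GFP is named, and the sort came after magnetic removal of hematopoietic cells that carried the antigens of a lineage depletion kit, among them Ter119 of erythroid cells. There were 3 libraries of total RNA at E16.5 (embryonic day) and 3 at E18.5, here named replicates A to C. Each came from pooled livers of untreated embryos of that age. The sample labels give these stages as embryonic days 16 and 18 and name the cells cholangiocytes, the epithelial cells of bile ducts. The replicates come from pooled livers rather than single animals, and the authors' methods and the sample labels do not say whether each is a separate pool. The spread between replicates, on which every p-value rests, is therefore not a spread between animals. No GFP-negative cells were analysed here, and the comparison the design allows is between the stages.

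In a secretory epithelium such as the bile duct, a cytosolic carbonic anhydrase supplies the bicarbonate that anion exchangers carry into the lumen, and water follows the ions. The family is divided by where the protein sits: CAR1, CAR2, CAR3 and CAR13 are cytosolic, CAR5A is imported into mitochondria, and CAR4, CAR9, CAR12 and CAR14 act at the outer face of the cell membrane. CAR8 lacks the zinc-binding site of an active enzyme and is known as a binding partner of the inositol trisphosphate receptor. CAR2 is a very fast enzyme found in bile ducts, red cells and osteoclasts, whereas CAR3 is slow and is best known as an abundant protein of muscle, fat and adult liver.

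The transcript levels below are TPM, a measure of transcripts that is scaled to gene length and library total and can therefore be set side by side between genes. Changes between the stages are log2 fold changes of TPM + 1, a scale that understates the change of low genes, and were tested with limma over the 22452 genes whose mean reached 1 TPM. Of the 10 carbonic anhydrase genes, 9 passed this filter, and Car4 did not. Adjusted p was under 0.05 for 5 of the 9, of which 3 were higher at E18.5 (Car1, Car2 and Car13) and 2 were lower (Car3 and Car14). Over all genes tested 31.2% passed, with 26.0% higher and 5.22% lower, and no test compared the 9 genes with this background. For 5 of the 9 the TPM ranges of the stages were separate, against 53.3% of all genes tested. The median log2 fold change was 0.063 for the 9 genes and 0.42 for all genes tested, so that single genes have to be read against a general shift to higher TPM at E18.5. This median became 0.021 under median-of-ratios scaling, where 17.2% of all genes passed, and the 3 carbonic anhydrase genes that then passed were all lower at E18.5 (Car3, Car14 and Car8), against 6.81% of all genes higher and 10.4% lower.

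The libraries held between 13093937 and 26206374 reads, as recovered from the TPM and exon lengths, and each E18.5 library was shallower than each E16.5 library. The 11 markers of cholangiocytes were all expressed, with Sox9 at 69.5 to 186 TPM at E16.5 against 353 to 466 TPM at E18.5. Markers of hepatoblasts and hepatocytes were also present in every library, and their 12 genes summed to between 161599 and 202859 TPM at E16.5, against between 37305 and 87275 TPM at E18.5, with the lowest sum in E18.5 replicate B. The 8 megakaryocyte markers, genes of the cells that form platelets, summed to between 3262 and 9453 TPM at E16.5, against 86.6 to 746 TPM at E18.5. In bulk RNA such as this, fewer cells of a type and less RNA per cell cannot be told apart.

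Car3 had the largest fall of the family. It was measured at 67.3, 53.0 and 67.7 TPM in replicates A to C at E16.5, against 1.99, 1.37 and 2.32 TPM at E18.5, from 1653, 1184 and 1548 reads and 39, 20 and 27 reads. The stages were far apart, and the lowest E16.5 library stood 22.8-fold above the highest E18.5 library. The mean fell from 62.7 ± 8.39 to 1.89 ± 0.485 TPM (SD, n = 3 each), a 33.1-fold difference, and the log2 fold change was -4.47 (SE 0.19, 95% interval -4.92 to -4.01, limma adjusted p = 0.00137). No other of the 22452 genes had a smaller unadjusted p in limma, and 5 had a larger fall. Among protein-coding genes, the mean level of Car3 moved from the 91.1 percentile at E16.5 to the 39.7 percentile at E18.5. The call held in 16 of 16 alternative settings, with log2 fold changes between -5.20 and -4.33.

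Markers of the cell types that could carry Car3 were set beside this fall. CAR3 is abundant in muscle and fat, and the 8 markers of those tissues summed to between 1.35 and 1.64 TPM at E16.5, against 4.98 to 7.65 TPM at E18.5. Acta1, the actin of skeletal muscle, reached 0.892 TPM in its highest library and Adipoq, the fat hormone adiponectin, 0.0908 TPM. Fabp4, a fatty acid carrier of fat and endothelial cells, made up most of the E18.5 sum and was the only gene of this list that could be tested, with a log2 fold change of 1.53. In the hepatoblast and hepatocyte list 7 of 12 genes were lower at E18.5 and none was higher, against 5.22% and 26.0% of all genes tested. The median log2 fold change of the list was -1.24, and Afp, the fetal serum protein alpha-fetoprotein, fell by 2.90 on the log2 scale (limma adjusted p = 0.00852). All 8 megakaryocyte genes were lower, against the same 5.22%, with a median of -4.39, close to the log2 fold change of Car3. Their summed level was 5671, 3262 and 9453 TPM in E16.5 replicates A to C and 86.6, 746 and 211 TPM at E18.5. At E16.5 this sum and Car3 were both lowest in replicate B and highest in replicate C. The E18.5 library with the highest sum, replicate B, had the lowest Car3. The hepatoblast and hepatocyte sum was highest in replicate C at both stages, as Car3 was. It was lowest in replicate B at E18.5, as Car3 was, but in replicate A at E16.5, where Car3 was lowest in replicate B. None of the markers in these lists was at 0 in every library, and the part of muscle, fat, hepatoblasts or megakaryocytes in the fall of Car3 was not tested.

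Car2, the fast cytosolic enzyme, went the other way and became the highest of the family. It was at 39.9, 32.1 and 36.8 TPM in replicates A to C at E16.5, against 57.0, 71.5 and 58.9 TPM at E18.5, so every E18.5 library was above every E16.5 library. The mean rose from 36.2 ± 3.92 to 62.4 ± 7.89 TPM (SD, n = 3 each), 1.72-fold, with a log2 fold change of 0.77 (SE 0.14, adjusted p = 0.0138). Relative to the median gene the rise was smaller: under median-of-ratios scaling it was 0.32 and did not pass (adjusted p = 0.121). In 15 of 16 alternative settings the call held. The 11 cholangiocyte markers moved in the same direction, with 10 higher and 0 lower, against 26.0% and 5.22% of all genes tested. Their median was 1.51, and their sum was 965 to 2911 TPM at E16.5 against 8725 to 14831 TPM at E18.5. Red cells hold both CAR2 and CAR1, and cells with the erythroid antigen Ter119 had been depleted before the sort. None of the 11 erythroid genes tested passed in either direction, against 31.2% of all genes tested. Their sum was 237 to 327 TPM at E16.5, against 126, 637 and 168 TPM in E18.5 replicates A to C. E18.5 replicate B had the highest erythroid sum and the highest Car2, but not the highest Car1, and the part of red cells or of cholangiocyte content in either result was not tested.

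Car13, a cytosolic enzyme expressed in many tissues, was also higher at E18.5. Its levels were 5.48, 7.75 and 3.82 TPM at E16.5 against 11.6, 18.6 and 13.1 TPM at E18.5, and the stages did not overlap. The mean rose from 5.68 ± 1.97 to 14.4 ± 3.65 TPM, 2.54-fold, and the log2 fold change was 1.22 (SE 0.28, adjusted p = 0.0213). It passed in 11 of 16 alternative settings. The call was lost without E16.5 replicate A (adjusted p = 0.0518), E18.5 replicate A (0.0552) or E18.5 replicate B (0.0636), and under median-of-ratios scaling (log2 fold change 0.82, adjusted p = 0.0578) and quantile normalization (0.81, adjusted p = 0.0640).

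Car1, the abundant carbonic anhydrase of red cells and colon, was low in these cells. It was at 3.46, 6.78 and 3.11 TPM at E16.5, from 31 to 66 reads, and at 8.32, 8.31 and 13.8 TPM at E18.5, from 53 to 71 reads. The stages did not overlap, although E16.5 replicate B came near the lower E18.5 libraries. The mean rose from 4.45 ± 2.02 to 10.1 ± 3.17 TPM, 2.28-fold, with a log2 fold change of 1.06 (SE 0.32, adjusted p = 0.0445). Its adjusted p was the largest of the 5 calls, and the call held in 5 of 16 alternative settings. With the replicate letter as a block the adjusted p was 0.0756, and without any 1 of the libraries other than E16.5 replicate B it was between 0.0789 and 0.118.

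**Figure D1:**
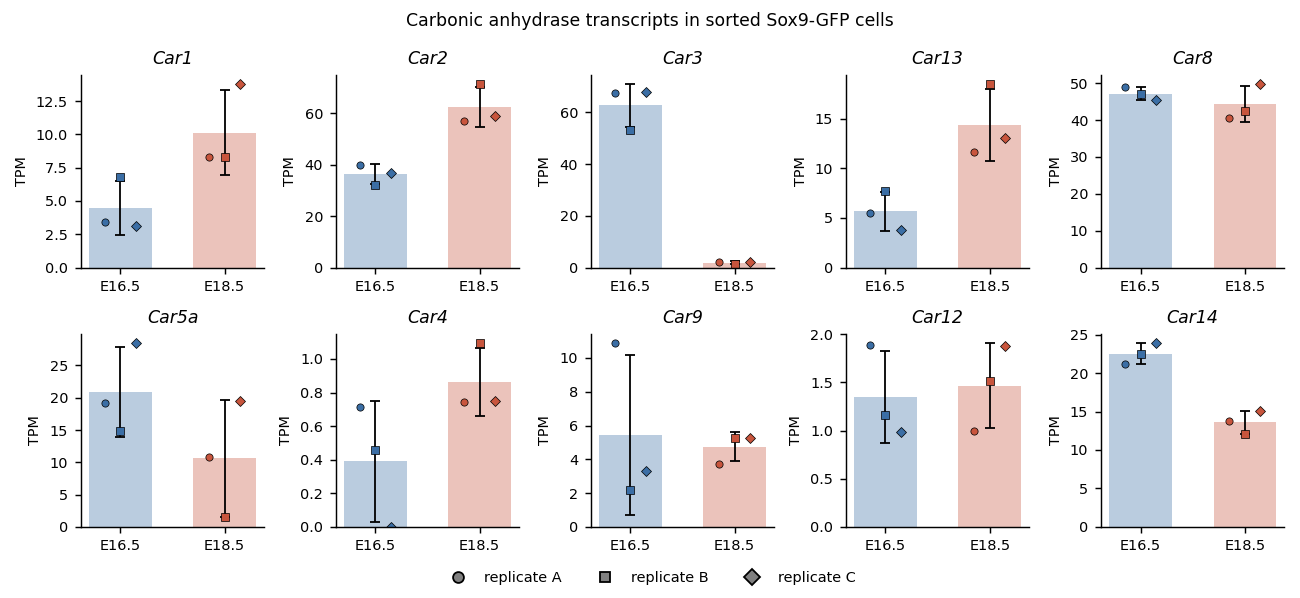
TPM of the 10 carbonic anhydrase genes at E16.5 (blue) and E18.5 (red), with a point for each library, bars for the mean and error bars for the SD (n = 3 each), each gene on its own axis from 0. Car3 drops from 53.0 to 67.7 TPM at E16.5 to 1.37 to 2.32 TPM at E18.5, Car1, Car2 and Car13 stand higher at E18.5 as deposited, and in Car5a the E18.5 libraries spread from 1.46 to 19.5 TPM.

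Of the 10 genes, the 4 of active cytosolic enzymes lie together on chromosome 3 of the mouse genome (GRCm38), within 259 kb. Their order is Car13, Car1, Car3 and Car2. Car13 covers chr3:14641727-14663002, Car1 chr3:14766216-14808368, Car3 chr3:14863512-14872523 and Car2 chr3:14886273-14900770. Car1 is transcribed from the minus strand, toward Car13, and the other three from the plus strand. Only 13.7 kb separate the end of Car3, which had the largest fall, from the start of Car2, which rose, whereas 55.1 kb separate Car1 from Car3 and 103 kb separate Car13 from Car1. Of the neighbours before Car13, E2f5, a transcription factor of the cell cycle, averaged 23.5 and 43.0 TPM at the earlier and the later stage (log2 fold change 0.85, adjusted p = 0.0103), and 1810022K09Rik averaged 19.8 and 28.5 TPM (log2 fold change 0.48, adjusted p = 0.0915). The next protein-coding genes past Car2, Gm9733 and Sirpb1a, were below 1 TPM in every library. Car3 was thus the one gene of the 4 in the cluster with a lower mean at E18.5, and this direction held for it under all 16 alternatives, as the higher mean did for the other three. Outside the cluster, Car14 lies at chr3:95897768-95904691 (minus strand), Car4 at chr11:84957786-84966044 (plus), Car5a at chr8:121916126-121944904 (minus), Car8 at chr4:8143362-8239041 (minus), Car9 at chr4:43506966-43513729 (plus) and Car12 at chr9:66713686-66766845 (plus).

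**Figure D2:**
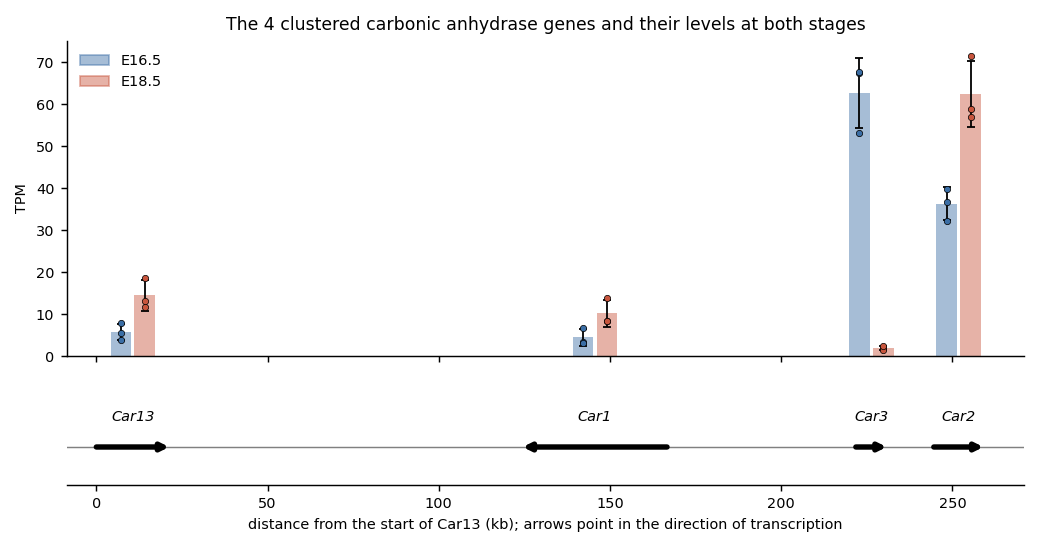
Positions of the 4 clustered carbonic anhydrase genes by distance from the start of Car13 in kb (lower panel, arrows in the direction of transcription) and their TPM at E16.5 (blue) and E18.5 (red) above them (bars, mean; points, libraries; error bars, SD, n = 3 each). Car3 at 62.7 and 1.89 TPM runs opposite to Car2, 13.7 kb further on, at 36.2 and 62.4 TPM, and to Car1 and Car13.

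A ratio of 2 genes within a library does not depend on scaling between libraries, and these pairs were chosen with the values known, so they are given with no test. The ratio of Car2 to Car3 was 0.593, 0.605 and 0.543 in replicates A to C at E16.5, against 28.6, 52.3 and 25.4 at E18.5. Car3 was thus the higher of the pair in each E16.5 library and Car2 in each E18.5 library. Against Car8, which changed little as deposited, Car2 stood at 0.813, 0.682 and 0.808 at E16.5 against 1.40, 1.69 and 1.18 at E18.5. The ratio of Car13 to Car2 was 0.104 to 0.242 at E16.5 against 0.204 to 0.260 at E18.5, and these ranges overlap, as do those of Car1 to Car2, at 0.0847 to 0.211 and 0.116 to 0.235.

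Car8, the member without enzyme activity, was at 49.1, 47.0 and 45.5 TPM at E16.5, against 40.6, 42.4 and 49.8 TPM at E18.5. The stages overlap, since E18.5 replicate C was the highest of the 6 libraries. Its mean was 47.2 ± 1.79 TPM at E16.5, against 44.3 ± 4.89 TPM at E18.5, with a log2 fold change of -0.094 (SE 0.12, 95% interval -0.38 to 0.19, adjusted p = 0.561). Car8 ranked second of the 10 genes at both stages. Relative to the median gene it was lower at E18.5, and a log2 fold change of -0.54 passed with median-of-ratios scaling (adjusted p = 0.0392), the 1 of 16 alternatives in which it did.

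Car5a encodes the mitochondrial enzyme of the hepatocyte, which feeds bicarbonate to the urea cycle and to gluconeogenesis. Its levels were 19.2, 14.8 and 28.5 TPM at E16.5, against 10.8, 1.46 and 19.5 TPM at E18.5, where replicate B rested on 10 reads. The stages overlap, and replicate B stood apart from the other E18.5 libraries. The mean was 20.8 ± 6.96 and 10.6 ± 9.02 TPM, and the log2 fold change of -1.33 (SE 0.73, 95% interval -3.04 to 0.39) did not pass (adjusted p = 0.189). Without E18.5 replicate B it was -0.44 (adjusted p = 0.368). The library with the lowest Car5a was also the one with the lowest hepatoblast and hepatocyte sum, 37305 TPM, and at both stages replicate C had the highest Car5a and the highest sum, 202859 and 87275 TPM. At E16.5, however, Car5a was lowest in replicate B and the sum in replicate A, at 161599 TPM against 170076 TPM in replicate B. The ratio of Car5a to Cps1, the urea cycle enzyme that uses this bicarbonate, was 0.0438, 0.0279 and 0.0687 at E16.5 against 0.0292, 0.0105 and 0.0273 at E18.5, and E16.5 replicate B lay within the E18.5 range. The part of hepatocyte content in the level of Car5a was not tested. Exons of BC048644 on the opposite strand overlap 23.5% of the exon length of Car5a, and whether the counting used strand is not given in the sources used here.

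**Figure D3:**
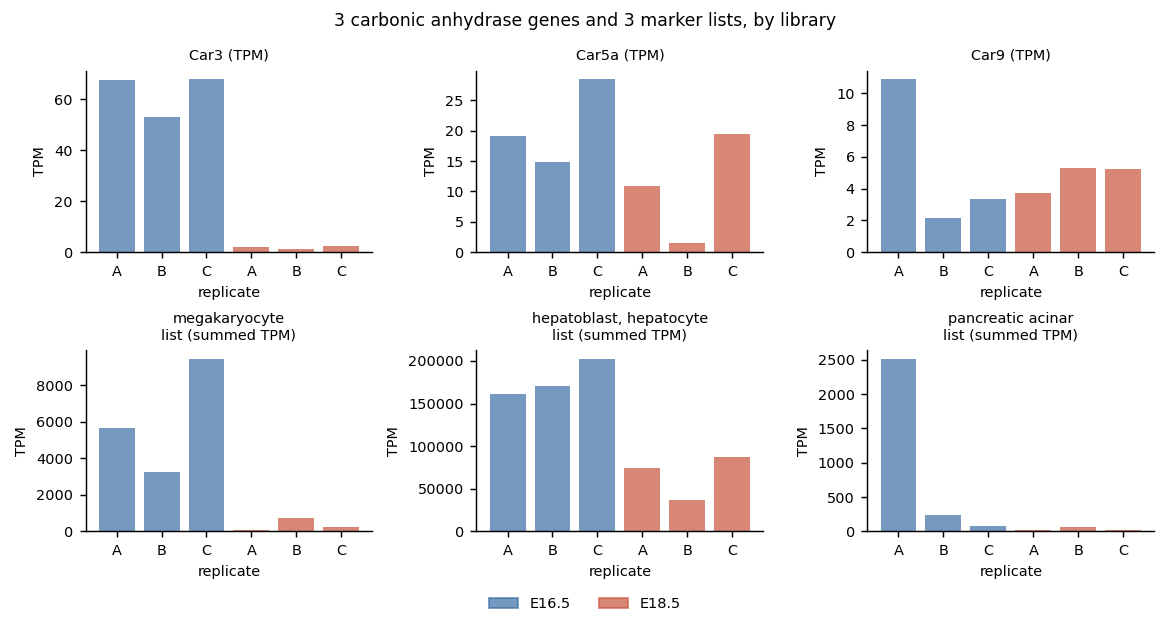
Upper panels, TPM of Car3, Car5a and Car9 in each library (replicates A to C at E16.5 in blue and at E18.5 in red). Lower panels, summed TPM of the megakaryocyte, hepatoblast and hepatocyte, and pancreatic acinar marker lists in the same libraries. The hepatocyte sum and Car5a are both lowest in E18.5 replicate B. The acinar sum and Car9 are both highest in E16.5 replicate A, but E16.5 replicate B, with the next highest acinar sum, has the lowest Car9.

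Of the membrane-bound genes, Car14 was the highest at both stages and the only one that passed. It was at 21.2, 22.4 and 23.9 TPM at E16.5, against 13.7, 12.1 and 15.01 TPM at E18.5, so every E18.5 library was below every E16.5 library. CAR14 is a single-pass enzyme that in mice is known from the hepatocyte membrane. The mean fell from 22.5 ± 1.36 to 13.6 ± 1.47 TPM, 1.65-fold, with a log2 fold change of -0.69 (SE 0.14, adjusted p = 0.0168). The call held in 15 of 16 alternative settings, with log2 fold changes between -1.12 and -0.61, and was lost without E18.5 replicate A (-0.70, adjusted p = 0.0611). Set against Car8 in the same library, Car14 stood at 0.432, 0.477 and 0.526 at E16.5 against 0.338, 0.285 and 0.301 at E18.5. The hepatoblast and hepatocyte sum moved in the same direction, from between 161599 and 202859 TPM to between 37305 and 87275 TPM, and its part in the fall of Car14 was not tested. Exons of Aph1a on the opposite strand overlap 17.5% of its exon length.

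Car9, whose product is a tumor-associated enzyme induced by low oxygen through hypoxia-inducible factor, varied more between replicates than between stages. It was at 10.9, 2.17 and 3.32 TPM at E16.5, against 3.74, 5.26 and 5.24 TPM at E18.5. E16.5 replicate A held the highest level and E16.5 replicate B the lowest, so the E18.5 range lay inside the E16.5 range. The log2 fold change was 0.063 (SE 0.48, 95% interval -1.07 to 1.20, adjusted p = 0.927), and its sign turned under median-of-ratios scaling (-0.30), quantile normalization (-0.37) and other settings. E16.5 replicate A also held the highest sum of the pancreatic acinar markers, genes of digestive enzymes, at 2517 TPM against 236 and 84.6 TPM in the other E16.5 libraries and 16.2 to 56.1 TPM at E18.5. The next highest sum, 236 TPM, was in E16.5 replicate B, which had the lowest Car9. Of the 7 acinar genes tested 3 were lower at E18.5, against 5.22% of all genes tested. Their median log2 fold change was -2.42, and -1.34 without E16.5 replicate A. The part of such cells in the level of Car9 was not tested. Exons of Gm12454 on the opposite strand overlap 9.29% of the exon length of Car9.

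Since CAR9 is a textbook product of the low-oxygen response, its promoter and 12 genes of that response were looked at together. The core letters of the hypoxia response element, ACGTG, were searched on both strands, where they read CACGT on the other strand, in RefSeq promoters of 300 bases (GRCm38.p6), 250 of them before the start. Of 32851 such promoters 19.6% held them. Promoters were at hand for 5 of the 10 carbonic anhydrase genes (Car4, Car5a, Car9, Car12 and Car14), and 3 of the 5 held the letters once each. These are shown because Car9 is known to be induced through this element, with the letters in capitals in 30 bases of the gene's own strand, 5′ to 3′:
Car9: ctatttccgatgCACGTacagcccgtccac
Car14: cacccccctcctCACGTacaccggtttcga
Car4: ggagccgactccCACGTctagccgtccggg
The Car9 stretch is chr4:43506996-43507025 on the plus strand, the Car14 stretch chr3:95904675-95904704 on the minus strand and the Car4 stretch chr11:84957744-84957773 on the plus strand. Counted from the RefSeq start, the letters begin 18 bases before it in Car9, 7 bases before it in Car14 and 2 bases after it in Car4. These RefSeq starts differ from the gene ends and starts given above, and the Car9 stretch lies inside the span given above for Car9. A match of 5 letters is a description of these windows and not a bound site. The 3 genes did not share a direction, since Car9 did not pass, Car14 was lower at E18.5 and Car4 was not tested.

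Among the 12 genes of the low-oxygen response, 4 were higher at E18.5 and 2 were lower, against 26.0% and 5.22% of all genes tested. Their median log2 fold change was 0.40, next to 0.42 for all genes tested. Vegfa, the vascular growth factor, was at 97.7, 106 and 66.7 TPM at E16.5, against 258, 241 and 210 TPM at E18.5 (log2 fold change 1.40, adjusted p = 0.00890), and Egln3, a prolyl hydroxylase, Slc2a1, a glucose transporter, and Kdm3a, a histone demethylase, were higher by 0.97, 0.64 and 0.54. Ldha and Pgk1, enzymes of glycolysis, fell by 1.67 and 0.65 on the log2 scale (adjusted p = 0.0120 and 0.0157). Among the E16.5 libraries, replicate A, which had the highest Car9, was also the highest for Adm, Egln3, P4ha1 and Pdk1. Replicate A was not the highest of these libraries for the rest of the list, Vegfa, Ldha and Pgk1 among them. The part of low oxygen in the level of Car9 was not tested.

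Car12, the membrane enzyme of kidney, colon and many secretory glands, was low throughout. Its levels were 1.89, 1.16 and 0.990 TPM at E16.5, against 1.001, 1.52 and 1.88 TPM at E18.5, ranges that almost coincide. The log2 fold change was 0.074 (SE 0.30, 95% interval -0.64 to 0.79, adjusted p = 0.861), and it was negative with limma voom on reads (-0.071), quantile normalization (-0.30) and median-of-ratios scaling (-0.18). Car4, which is anchored to the membrane by a lipid, was at the edge of detection, at 0.712, 0.456 and 0 TPM at E16.5, against 0.744, 1.09 and 0.751 TPM at E18.5. These values rested on 12, 7 and 0 reads and on 10, 11 and 6 reads, and 0 reads in E16.5 replicate C allows up to 0.191 TPM at a limit of 3 reads. Its lowest E18.5 library lay just above its highest E16.5 library, and at a mean of 0.626 TPM over the 6 libraries it was not tested across genes.

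**Figure D4:**
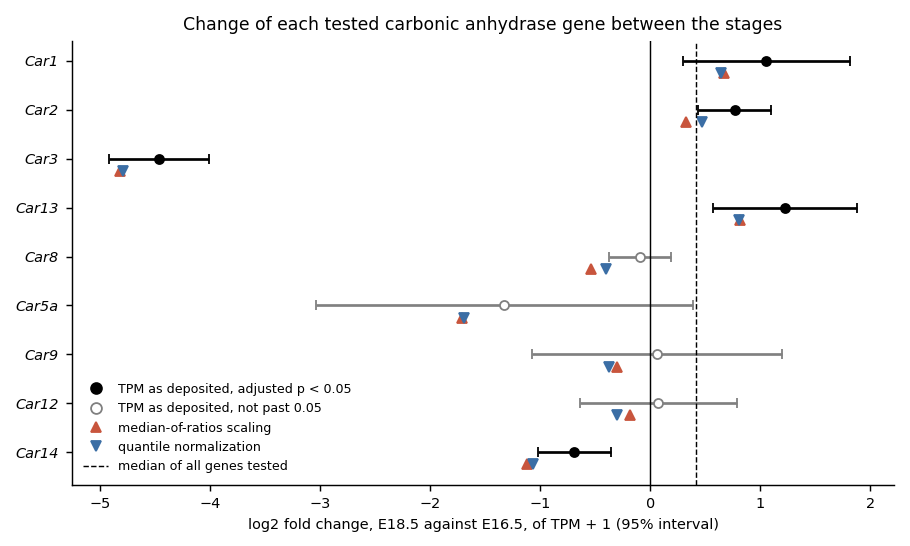
Log2 fold change (E18.5 against E16.5, of TPM + 1) of the 9 tested carbonic anhydrase genes with its 95% interval, filled where adjusted p was under 0.05. Triangles give the value under median-of-ratios scaling and quantile normalization and the dashed line the median of all genes tested (0.42): Car3 stays far below 0, Car1, Car2 and Car13 stay above 0 but do not pass under median-of-ratios scaling, and Car9 and Car12 change sign under both.

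With 3 libraries against 3, an exact two-sided permutation test on the TPM of a single gene cannot give less than 0.1, and Car1, Car2, Car3, Car4, Car13 and Car14 each gave this smallest value. The exact permutation p was 0.3 for Car5a, 0.4 for Car8, 0.8 for Car12 and 1 for Car9. It cannot pass 0.05 here and serves to show whether the stages overlap.

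The order of the genes within a stage changed at its head. At E16.5 the order by mean TPM was Car3, Car8, Car2, Car14, Car5a, Car13, Car9, Car1, Car12 and Car4. Neighbours whose libraries overlapped were Car14 with Car5a, Car13 with Car9, and Car9 with Car1, and all other neighbours were separate in every library. At E18.5 it was Car2, Car8, Car13, Car14, Car5a, Car1, Car9, Car3, Car12 and Car4. The libraries of Car13, Car14, Car5a and Car1 overlapped from each gene to the next there, as did those of Car3, Car12 and Car4, while Car2 and Car8 stood apart at the head.

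The 10 genes summed to 219, 188 and 214 TPM in replicates A to C at E16.5, against 150, 164 and 180 TPM at E18.5. The mean sum was 207 ± 16.7 and 164 ± 15.4 TPM, and without Car3 it was 144 ± 8.64 and 163 ± 15.2 TPM, where E16.5 replicate A lay above E18.5 replicate A. Car3 made up 28.2% to 31.7% of the sum at E16.5, against 0.835% to 1.33% at E18.5. Car2 held 17.1% to 18.2% of it at E16.5, against 32.7% to 43.7% at E18.5. The 4 genes of active cytosolic enzymes, Car1, Car2, Car3 and Car13, held a mean of 52.7% of the sum at E16.5, against 54.2% at E18.5. Libraries lay between 52.2% and 53.1% and between 48.8% and 61.0%. The share of these 4 genes thus overlapped between the stages while its leading gene differed, and Car8 was not counted in it. The 4 membrane-bound genes summed to 29.7 ± 4.41 and 20.7 ± 1.93 TPM. These shares describe transcripts of the family and not enzyme activity, which was not measured here.

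**Figure D5:**
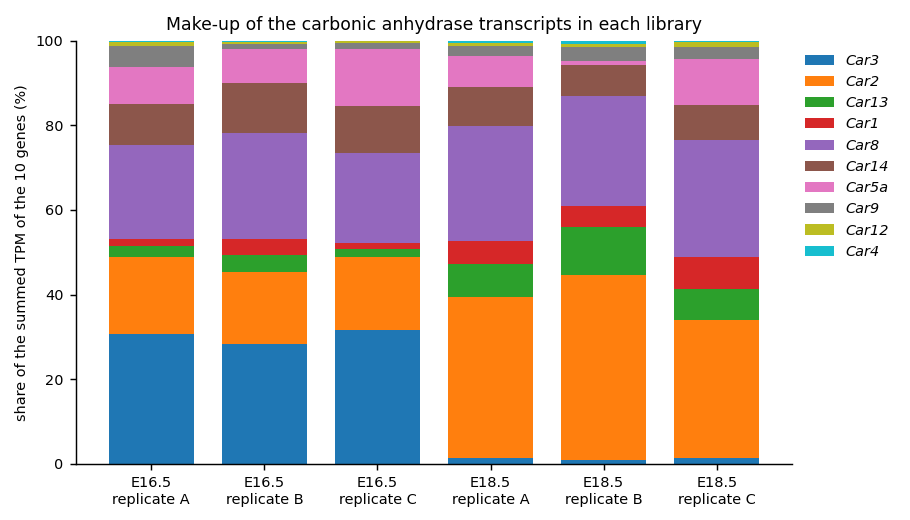
Share of each of the 10 carbonic anhydrase genes in their summed TPM (percent, one stacked bar per library). Car3 takes 28.2% to 31.7% of each E16.5 bar and 0.835% to 1.33% of each E18.5 bar, where Car2 takes 32.7% to 43.7%.

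The 6 remaining genes of the family were low, and the highest value of any of them in a library was 3.20 TPM, for Car15 in E18.5 replicate B. Car11, which like Car8 lacks enzyme activity, averaged 0.7003 ± 0.145 TPM at E16.5, against 2.18 ± 0.333 TPM at E18.5 (log2 fold change 0.90, SE 0.27, adjusted p = 0.0424), and it lost the call without any 1 of the libraries (adjusted p 0.0827 to 0.113) and under median-of-ratios scaling (0.125). The other 3 tested did not pass: the log2 fold change was 0.10 for mitochondrial Car5b, -0.18 for cytosolic Car7 and 0.64 for Car15, and 65.7% of the exon length of Car15 is shared with Gm20518 on the same strand. Car6, the secreted enzyme of saliva, was listed at 0 in the E16.5 libraries and reached 0.431 TPM at E18.5, and Car10 stayed between 0.0920 and 0.310 TPM.

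The genes that carry bicarbonate and chloride across the cell membrane were described beside the enzymes, from a list of 16 of which 12 could be tested. At E18.5 6 of the 12 were higher and 0 were lower, against 26.0% and 5.22% of all genes tested, with a median log2 fold change of 0.66 against 0.42 for all genes tested. Under median-of-ratios scaling 4 of the 12 were higher and 2 were lower, against 6.81% and 10.4% of all genes tested. The median was then 0.23, against 0.021 for all genes tested. With the replicate block, with limma voom on reads (5 higher each) and with a filter at 5 TPM (6 higher), 1 was lower. Slc4a2, the anion exchanger of the bile duct membrane, was at 28.6, 30.5 and 19.8 TPM at E16.5, against 54.3, 56.9 and 46.1 TPM at E18.5 (log2 fold change 0.99, adjusted p = 0.0142). Slc4a4, a sodium bicarbonate cotransporter, averaged 24.9 and 54.2 TPM (1.12, adjusted p = 0.0113), and Ano1, a calcium-activated chloride channel, 11.9 and 41.0 TPM (1.83, adjusted p = 0.0157). The others that passed were Slc4a3, Slc4a7 and Clcn2, at log2 fold changes of 1.80, 0.46 and 0.86. Cftr, the cyclic AMP-gated chloride channel, did not pass, at 9.07, 4.87 and 0.517 TPM at E16.5, against 4.03 to 5.42 TPM at E18.5 (0.33, adjusted p = 0.705). Slc4a1, the anion exchanger of red cells, was highest in E18.5 replicate B, at 40.2 TPM against 6.31 to 16.1 TPM in the other libraries. Without E18.5 replicate A 1 of the 12 passed, where 1472 of 22410 genes passed over all those tested.

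For each tested carbonic anhydrase gene, the 3 most similar of 11375 protein-coding genes averaging 5 TPM or more were found by Pearson correlation of log2(TPM + 1) over the 6 libraries, which fall into the 2 stages. Both genes of a pair share the depth and the cell content of each library, so these values are a description with no test. Genes found this way follow the member by selection, so a shared direction or a shared lowest library is no separate result. Nearest to Car3 were Ces1e, a liver carboxylesterase (r = 0.999), P4hb, a protein disulfide isomerase (0.998), and Mcoln2, an endolysosomal channel (0.998). Ces1e was at 9.96 to 11.1 TPM at E16.5, against 1.61 to 2.14 TPM at E18.5, and its log2 fold change was -2.05 against -4.47 for Car3. Nearest to Car5a were Bhmt, which remethylates homocysteine, Cyp8b1, a bile acid enzyme, and Marc1, each at r = 0.998 and each lowest in E18.5 replicate B, as Bhmt at 48.2 TPM there against 189 and 326 TPM in replicates A and C. Nearest to Car14 were Mmp19, Fkbp11 and Aqp4, at r = 0.995 or 0.996, and each was lower at E18.5, as Car14 was. Nearest to Car2 were Ralb, Usf2 and Cog5 (r between 0.997 and 0.999), to Car13 Snu13, Eif2d and Chmp1b (0.995 to 0.998) and to Car1 Rassf8, Higd2a and Ccdc86 (0.986 to 0.991). For Car8, Car9 and Car12 the nearest genes were Ndufb9, Rrp12 and Npr3, at r = 0.969, 0.960 and 0.979.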

How the data were processed

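The authors checked reads with FastQC 0.11.7, trimmed them, aligned them to the GRCm38 genome with HISAT2 2.1.0 and obtained gene counts from HTSeq 0.5.4p3 and GENCODE vM15. The deposited values are TPM that the authors derived from these counts, in 6 libraries. Symbols, places and exon lengths came from GENCODE vM21, which held 52403 of 52550 identifiers. Multiplying TPM by exon length gave whole reads (within 0.01) for 49583 genes. These served for depth, and intervals and the limit of 3 reads cover counting error only. No replicate pair agreed within sampling noise (chi-square per degree of freedom 15.1 or more). All 37 mitochondrial genes were listed at 0.

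The stages were compared with limma 3.58.1 (R 4.3.3; trended eBayes, Benjamini-Hochberg) on log2(TPM + 1), for genes averaging 1 TPM or more. Exact permutation tests used scipy 1.17.1. The steps were tested on simulated data. The 10 genes and all gene lists, as well as the alternatives, were chosen with earlier results of these data known. The genes named are the family, the list genes whose values touch a member, and the 3 nearest by correlation. Also named are the neighbours of the chromosome 3 cluster, genes whose exons overlap a family gene, and Ptprg and Ptprz1. Ahsp of the erythroid list was not analysed here.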

Additional observations from a re-analysis of the deposited data

How the results depend on the processing

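Over the 9 tested genes, the sign of the log2 fold change held in all 15 or 16 alternatives for each but Car9 and Car12. Genes passing over all those tested numbered 7000, against 4282 with no filter (43310 tested), 3863 under median-of-ratios scaling (39.6% higher, against 83.3%), 3796 under quantile normalization (50.5% higher) and 1472 (without E18.5 replicate A) to 5686 when 1 library was left out. The carbonic anhydrase genes passing numbered 3 under median-of-ratios scaling, 3 under quantile normalization (1 higher) and 2 to 5 when 1 library was left out, the fewest without E18.5 replicate A. Of the other family genes 0 passed under no filter, median-of-ratios scaling, quantile normalization and any 1 library left out. The bicarbonate and chloride count, 6 as reported, was 1 to 6 when 1 library was left out and 5 to 7 under the other alternatives.

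Car1 kept its direction and lost the call with no filter (1.06), without the trend (1.06), with limma voom (1.06), median-of-ratios scaling (0.67) and quantile normalization (0.64), and ranged from 0.83 to 1.34 when 1 library was left out. Under median-of-ratios scaling Car2 was 0.32, Car8 -0.54 and Car13 0.82, and Car13 was 0.81 under quantile normalization. With 1 library left out, Car13 ranged from 1.01 to 1.44, Car14 from -0.76 to -0.61, Car9 from -0.33 to 0.62 and Car12 from -0.046 to 0.23. Signs turned for Car9 (-0.30, -0.37 and -0.067) and Car12 (-0.18, -0.30 and -0.071) under median-of-ratios scaling, quantile normalization and voom, for Car5b under the former pair (-0.12 and -0.24), and for Car7, which ranged from -0.49 without E18.5 replicate A to 0.16 without E18.5 replicate C. The cause was not tested.

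Replicates with the same letter did not deviate together at every letter (r = -0.0425, 0.0814 and 0.140 for A, B and C), so the letters were not taken as pairs. With the replicate block 7314 genes passed, 4 carbonic anhydrase genes and 0 of the other family genes. Car1 was then at 1.06 (adjusted p = 0.0756), and no other call among the 9 tested genes changed.

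Of 144 alternative list medians 140 stayed within the spread between replicates. The hypoxia median was 0.19 at a mean of at least 5 TPM, -0.0022 under median-of-ratios scaling and 0.013 under quantile normalization, and the erythroid median ranged from -0.76 (without E18.5 replicate B) to 0.22. Depth limits Car4 (0 to 12 reads per library), Car1 (31 to 71), the low family genes, Car3 at E18.5 (20 to 39) and Car5a in E18.5 replicate B (10).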

Other observations

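Some receptor tyrosine phosphatases carry a carbonic anhydrase-like domain outside the cell that lacks enzyme activity. These were chosen after their values were seen. Ptprg was at 21.1, 23.7 and 11.1 TPM in E16.5 replicates A to C, against 43.4, 62.2 and 48.6 TPM at E18.5, with no overlap between the stages (log2 fold change 1.47, SE 0.29, limma adjusted p = 0.0151). Ptprz1 was lower throughout, at 1.14, 1.02 and 0.431 TPM at E16.5, against 2.48, 3.28 and 2.80 TPM at E18.5 (log2 fold change 1.07, SE 0.29, adjusted p = 0.0318).

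Of the markers of further cell types, 2 of 8 mesenchymal, 1 of 8 endothelial and 1 of 8 leukocyte genes were higher at E18.5 and none was lower, against 26.0% of all genes tested higher and 5.22% lower, so these counts are near or below the background. For the mesenchymal genes the median was 1.08 on the log2 scale, and they summed to between 108 and 241 TPM at E16.5, against 241 to 683 TPM at E18.5, with the highest sum in replicate C. The endothelial and leukocyte medians were 0.26 and 0.68.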
